A study of Mus musculus with 8 samples.

Results

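The genes described here are interferon-stimulated genes, which cells switch on when interferon binds its receptors. A list of 46 such genes was set by name. It was chosen with earlier results of these data known, so setting its counts beside shares of all genes is not an independent test. The rule for picking the probe sets of these genes uses no difference between groups. Of these, 41 were measured among the 19937 genes tested on the arrays, each read from its brightest probe set. Isg15, Gbp2, Igtp and Irgm2 lie only on probe sets that carry several gene symbols and were not used, and Ifi44 was not analysed here.

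Interferons are secreted proteins through which cells announce infection to their neighbours. Type I interferons (the alpha and beta forms) signal through the receptor chains Ifnar1 and Ifnar2 and the kinases Jak1 and Tyk2 to a complex that holds Stat2 and Irf9 and binds the interferon-stimulated response element (ISRE). Interferon gamma signals through Ifngr1 and Ifngr2, Jak1 and Jak2, and genes that respond to it often carry the gamma-activated site (GAS). The induced genes encode antiviral effectors, RNA sensors, chemokines, GTPases and parts of the antigen-processing machinery, and hepatocytes respond to both kinds of interferon.

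The study asked how loss of heme oxygenase activity, the source of carbon monoxide in cells, affects transcription in hepatocytes with a synchronised clock. Cells came from livers of male BALB/c mice, either HO1-/- or HO1+/+ littermates, whose age is not given in the sources used here. After attachment the cells received a lentivirus carrying either 1 hairpin (shRNA) against HO2 or a scrambled shRNA, and then puromycin for 3 days. Every culture was then given a dexamethasone pulse (30 min at 1 µM) to set its clock and was collected 28 h after it, so every group carries lentivirus, puromycin and a glucocorticoid. The 4 groups of 2 arrays were HO1 knockout (HO1-/- with scrambled shRNA), HO2 knockdown (HO1+/+ with HO2 shRNA), combined (HO1-/- with HO2 shRNA) and control (HO1+/+ with scrambled shRNA). The labels call the 2 samples of a group biological replicates without saying whether they came from separate mice, so a p-value covers no more than the spread of these samples. HO1 genotype and the hepatocyte preparations of that genotype cannot be told apart.

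Values are log2 array signals made by the authors, and a difference of 1 is a doubling of signal. Array medians ran from 7.61 to 7.70, and arrays of a group correlated at 0.997 to 0.999 over all genes. Hmox2, the targeted gene of the shRNA, averaged 11.60 in HO1 knockout, 8.35 in HO2 knockdown, 9.29 in combined and 11.49 in control arrays. Hmox1 averaged 11.97 in arrays labelled HO1 knockout and 12.44 in arrays labelled combined, against 11.55 in HO2 knockdown and 11.43 in control arrays. The Hmox1 signal was thus not lower in the arrays labelled HO1-/-, and where its probes lie relative to the deletion is not given in the sources used here, so this signal does not check the genotype. Of 14 Kupffer cell and macrophage markers 11 were higher in HO1 knockout arrays than in control (median log2 difference 2.17) and 1 was lower. Of all genes 5.62% were higher and 7.2% lower there. In HO2 knockdown against control 0 of the 14 were higher and 3 lower, where 16.5% and 16.7% of all genes were. The summed linear signal of those markers was 34832 to 35664 in HO1 knockout, 7128 to 7306 in HO2 knockdown, 33935 to 36011 in combined and 8300 to 8755 in control arrays.

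The 2 control arrays differed from each other in these genes more than the arrays of any other group did. Control replicate 2 was above control replicate 1 in 40 of 41 interferon-stimulated genes, with a median gap of 0.24, while over all genes it was higher in 44.8% with a median gap of -0.02. In the other groups the median size of the gap in these genes was 0.098 for HO1 knockout, 0.10 for HO2 knockdown and 0.13 for combined. Over all genes the median size of the gap was also larger in control, at 0.11, than in HO1 knockout (0.078), HO2 knockdown (0.072) and combined (0.067) arrays. Counts against control are therefore also given without control replicate 2.

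Promoters of the 6 genes that hold the ISRE letters and had the widest spread of group means are shown, because they carry the letters of the element through which type I interferon acts. Each stretch is the 250 bases before a start site taken from RefSeq promoter windows (build GRCm38.p6), written 5′ to 3′ along the gene's strand. That site need not be where the gene's annotated span begins. The Ifit3 stretch lies inside its span, which begins at 34583119, and the Gbp3 stretch runs past 142560016, where its span begins. Capitals mark every match to the ISRE letters, a pair of GAAA blocks with any 2 bases between them, on either strand; on the reverse strand the blocks read TTTC.
Cxcl10 (chr5:92348890-92349139, minus strand): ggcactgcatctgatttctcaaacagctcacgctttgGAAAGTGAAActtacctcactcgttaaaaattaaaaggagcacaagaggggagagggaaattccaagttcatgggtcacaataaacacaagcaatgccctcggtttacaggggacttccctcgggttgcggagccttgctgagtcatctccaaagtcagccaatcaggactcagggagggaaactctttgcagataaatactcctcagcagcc
Rsad2 (chr12:26456453-26456702, minus strand): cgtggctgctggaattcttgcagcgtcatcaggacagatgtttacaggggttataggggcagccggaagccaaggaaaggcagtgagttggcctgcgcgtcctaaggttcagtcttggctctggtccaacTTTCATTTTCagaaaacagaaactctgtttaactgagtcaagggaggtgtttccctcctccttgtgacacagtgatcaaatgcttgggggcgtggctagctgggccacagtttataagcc
Ifit3 (chr19:34583279-34583528, plus strand): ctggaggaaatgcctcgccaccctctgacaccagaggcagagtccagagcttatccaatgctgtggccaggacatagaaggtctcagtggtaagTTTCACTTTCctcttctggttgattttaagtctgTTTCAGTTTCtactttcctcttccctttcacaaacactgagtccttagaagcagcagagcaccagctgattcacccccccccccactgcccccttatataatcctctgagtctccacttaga
Ifit1 (chr19:34640639-34640888, plus strand): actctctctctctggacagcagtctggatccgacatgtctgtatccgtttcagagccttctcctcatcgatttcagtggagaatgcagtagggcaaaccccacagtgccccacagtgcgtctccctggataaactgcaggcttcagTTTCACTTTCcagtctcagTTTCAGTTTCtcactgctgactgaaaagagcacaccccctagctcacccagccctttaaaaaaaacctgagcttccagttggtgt
Gbp3 (chr3:142559794-142560043, plus strand): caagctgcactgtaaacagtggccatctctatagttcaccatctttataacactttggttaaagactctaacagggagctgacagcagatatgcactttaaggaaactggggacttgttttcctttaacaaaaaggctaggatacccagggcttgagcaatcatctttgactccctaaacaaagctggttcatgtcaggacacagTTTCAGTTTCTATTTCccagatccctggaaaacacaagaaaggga
Bst2 (chr8:71537473-71537722, minus strand): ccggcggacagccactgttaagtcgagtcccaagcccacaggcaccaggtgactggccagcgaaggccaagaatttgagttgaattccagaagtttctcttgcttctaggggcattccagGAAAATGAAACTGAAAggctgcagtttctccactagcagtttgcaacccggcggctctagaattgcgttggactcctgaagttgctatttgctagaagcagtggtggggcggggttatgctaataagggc

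Ifit1 and Ifit3 hold 2 separate matches each, Gbp3 and Bst2 hold 2 that overlap, and Cxcl10 and Rsad2 hold 1. A promoter window was at hand for 31 of the 41 genes. The ISRE letters lay in the windows of 10 of these 31 genes (32.3%), against 3.46% of all 27025 genes with a window. The GAS letters TTCNNNGAA lay in 7 of the 31 (22.6%), against 8.13% of all genes, and in Bst2 the GAS match overlaps an ISRE match. A match describes the letters and is not evidence of a bound site.

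Most interferon-stimulated genes had less signal with either heme oxygenase perturbed alone. In HO1 knockout against control, 25 of 41 fell, where 7.2% of all genes tested fell, and 2 rose, where 5.62% of all genes rose (limma, adjusted p under 0.05). Their median log2 difference was -0.30, against -0.04 over all genes. In HO2 knockdown against control, 32 of 41 fell, where 16.7% of all genes fell, and 2 rose, where 16.5% rose, with a median of -0.40 against -0.07 over all genes. The HO1 knockout and HO2 knockdown comparisons share the control arrays, and 21 genes fell in both. The share of all genes that fell in both is not given here. In these bulk samples fewer cells of a type and less RNA per cell cannot be told apart.

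With both perturbed, fewer of these genes were called lower than control than with either perturbed alone. Still, 30 of 41 had a negative difference from control. In combined against control, 18 of 41 fell, where 18.3% of all genes fell, and 3 rose, where 11.6% rose, with a median of -0.21 against -0.02 over all genes. Against HO1 knockout, 12 genes rose in combined arrays, where 10.2% of all genes rose, and 3 fell, where 12.8% fell. Against HO2 knockdown, 20 rose in combined arrays, where 13.0% of all genes rose, and 4 fell, where 21.0% fell. That count of 20 was 10 with each array centred on its median, and 8 without combined replicate 1, 9 without HO2 knockdown replicate 2 and 12 without HO2 knockdown replicate 1, where 6.88%, 8.81% and 6.51% of all genes rose. The median of the members was 0.12 against HO1 knockout and 0.19 against HO2 knockdown, while the medians over all genes were 0.01 and 0.02. With each array centred on its median, 8.64% of all genes rose in combined against HO2 knockdown.

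The interaction asks whether HO2 shRNA acted differently in HO1-/- and HO1+/+ cells. It is the combined minus HO1 knockout difference less the HO2 knockdown minus control difference. It was positive in 40 of 41 genes, the exception being Irf9 at -0.06, where 11553 of all 19937 genes were positive. Its median was 0.56 against 0.05 over all genes. The test was passed by 29 genes in the positive direction, where 4.67% of all genes passed. None of the 41 passed in the negative direction with limma, where 7.57% of all genes did, and 0 were negative at an unadjusted p under 0.05. Centring each array on its median changed the share of positive calls among all genes called for the interaction from 38.2% to 27.1%, for HO2 knockdown the share of higher calls from 49.7% to 62.9%, and for combined against HO2 knockdown from 38.2% to 24.1%. Under that centring the median of the 41 genes was -0.34 in HO2 knockdown, 0.12 in combined against HO2 knockdown and 0.52 for the interaction.

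**Figure D1:**
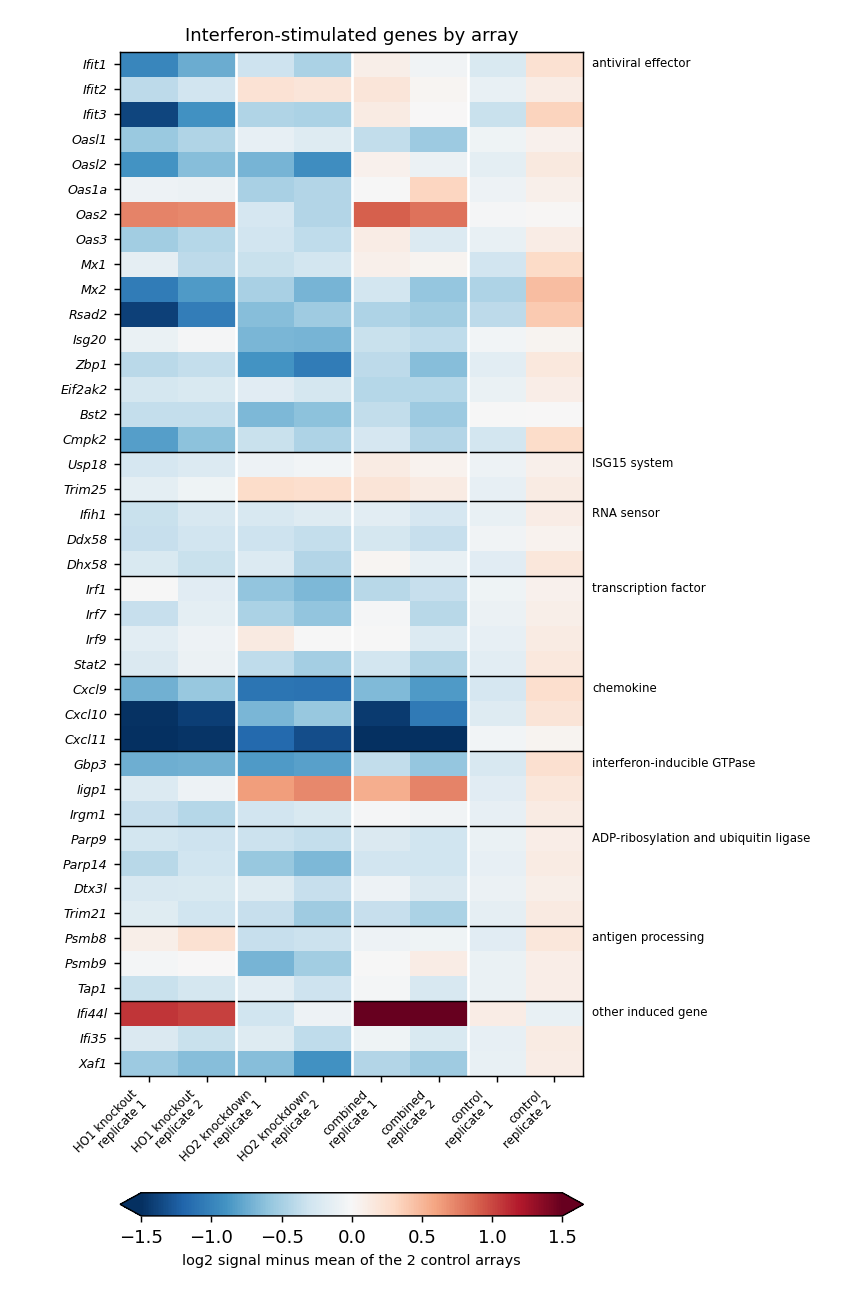
Each row is 1 of 41 interferon-stimulated genes, grouped by role, and each column is 1 of 8 arrays in the order HO1 knockout, HO2 knockdown, combined and control; colour gives the log2 signal minus the mean of the 2 control arrays, and the scale ends at -1.5 and 1.5. Blue rows run through HO1 knockout and HO2 knockdown, many are paler in combined, and the Ifi44l difference of 2.81 in combined arrays lies past the end of the scale.

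Ordered by group mean, control was highest for 28 of 41 genes and lowest for 0, while over all genes it was highest for 31.0% and lowest for 12.8%. HO2 knockdown was lowest for 23 genes, HO1 knockout for 16 and combined for 2, against 40.2%, 22.3% and 24.8% of all genes. Array by array, the median deviation of the 41 genes from the control mean was -0.34 and -0.30 in HO1 knockout, -0.34 and -0.44 in HO2 knockdown, -0.078 and -0.26 in combined, and -0.12 and 0.12 in control. Combined replicate 1 thus lay above control replicate 1, and combined replicate 2 lay closer to the HO1 knockout arrays than to either control array.

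**Figure D2:**
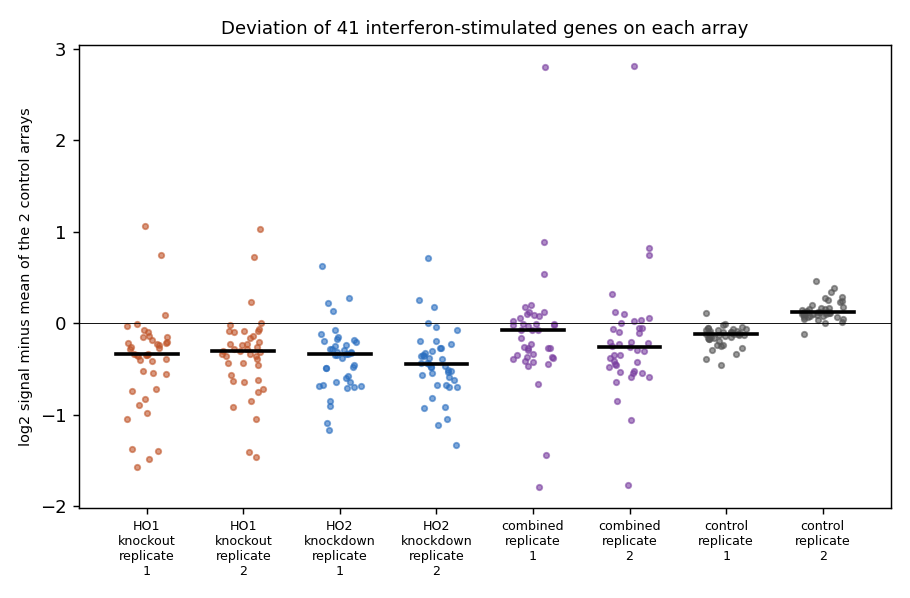
Each point is 1 of 41 interferon-stimulated genes on 1 array, placed by its log2 signal minus the mean of the 2 control arrays; the bar is the median of the genes on that array, and columns run from HO1 knockout through HO2 knockdown and combined to control. Medians lay between -0.44 and -0.30 on the 4 single-perturbation arrays. The 2 control arrays lie on opposite sides of 0 by construction, since their mean was subtracted.

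The antiviral effectors block the replication of viruses. In HO1 knockout 12 of the 16 measured fell and 1 rose, where 7.2% of all genes fell and 5.62% rose. In HO2 knockdown 13 fell, where 16.7% of all genes fell. The interaction test was passed by 12 in the positive direction, where 4.67% of all genes passed. For the counts by role below, shares of all genes are those given above. Rsad2, which encodes viperin, an enzyme that makes a chain-terminating nucleotide, had log2 signals of 8.98 and 9.34 in HO1 knockout, 9.74 and 9.85 in HO2 knockdown, 9.92 and 9.86 in combined and 9.99 and 10.77 in control arrays. The HO1 knockout arrays were the lowest, and control replicate 2 stood above every other array. Rsad2 fell in HO1 knockout by 1.22 on the log2 scale (SE 0.17, limma adjusted p = 8.71e-05), and its interaction was 1.32 (SE 0.24, adjusted p = 0.00201).

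Ifit3, of a family that binds foreign RNA ends, had log2 signals of 8.99 and 9.46 in HO1 knockout, 9.91 and 9.89 in HO2 knockdown, 10.49 and 10.38 in combined and 10.03 and 10.71 in control arrays. The combined arrays lay between the 2 control arrays, and all 4 single-perturbation arrays lay below both. With HO2 shRNA Ifit3 fell by 0.47 in HO1+/+ cells (limma adjusted p = 0.0358) and rose by 1.21 in HO1-/- cells (adjusted p = 3.35e-05), an interaction of 1.67 (SE 0.23, adjusted p = 2.06e-04). Ifit1, its neighbour in that family, had the same order of effects, with -0.40 in HO1+/+ cells, 0.88 in HO1-/- cells and an interaction of 1.28 (limma adjusted p = 1.43e-04). Ifit2, the third member on this chromosome 19 cluster, fell in HO1 knockout (-0.34) while its value in HO2 knockdown was 0.20 and did not pass (limma adjusted p = 0.0644).

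The 2'-5' oligoadenylate synthetases, which activate RNase L when they meet double-stranded RNA, did not move as a block. Oas2 had log2 signals of 9.06 and 9.05 in HO1 knockout, 8.07 and 7.88 in HO2 knockdown, 9.22 and 9.14 in combined and 8.30 and 8.34 in control arrays. No array of HO1-/- cells overlapped an array of HO1+/+ cells. Oas2 rose by 0.73 in HO1 knockout (SE 0.085, limma adjusted p = 1.31e-05) and by 1.20 in combined against HO2 knockdown (adjusted p = 3.16e-08). Its neighbour Oas3, whose annotated span lies 3.21 kb from that of Oas2 on chromosome 5, fell by 0.48 in HO1 knockout. Oas1a was at -0.082 in HO1 knockout (limma adjusted p = 0.71) and fell by 0.46 in HO2 knockdown. The related Oasl2 fell by 0.77 in HO1 knockout and by 0.81 in HO2 knockdown, was at -0.016 in combined against control, and had an interaction of 1.57 (limma adjusted p = 5.95e-06). Oasl1, an inhibitor of Irf7 translation in mice, fell in HO1 knockout (-0.50) and in combined (-0.46), and its interaction of 0.20 did not pass.

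Among the other effectors, Zbp1, a sensor of Z-form nucleic acid, fell most in HO2 knockdown, by 0.97 (limma adjusted p = 1.43e-06), and by 0.38 in HO1 knockout. Isg20, an exonuclease, fell by 0.69 in HO2 knockdown and was at -0.055 in HO1 knockout, where its arrays overlapped control. Cmpk2, a nucleotide kinase 12.7 kb from Rsad2 on chromosome 12, fell by 0.72 in HO1 knockout and by 0.40 in HO2 knockdown. Eif2ak2, which encodes the kinase PKR, fell by 0.42 in combined, and its interaction was 0.042. Bst2, which encodes tetherin, fell in HO1 knockout (-0.36), HO2 knockdown (-0.65) and combined (-0.46); it lies 3.56 Mb from Hmox1 on chromosome 8. The dynamin-like GTPases Mx1 and Mx2 had low array signals, below the median of gene means, where background takes a larger share of a signal. Mx2 fell by 0.95 in HO1 knockout (limma adjusted p = 0.00489), and Mx1 was at -0.27 and did not pass.

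**Figure D3:**
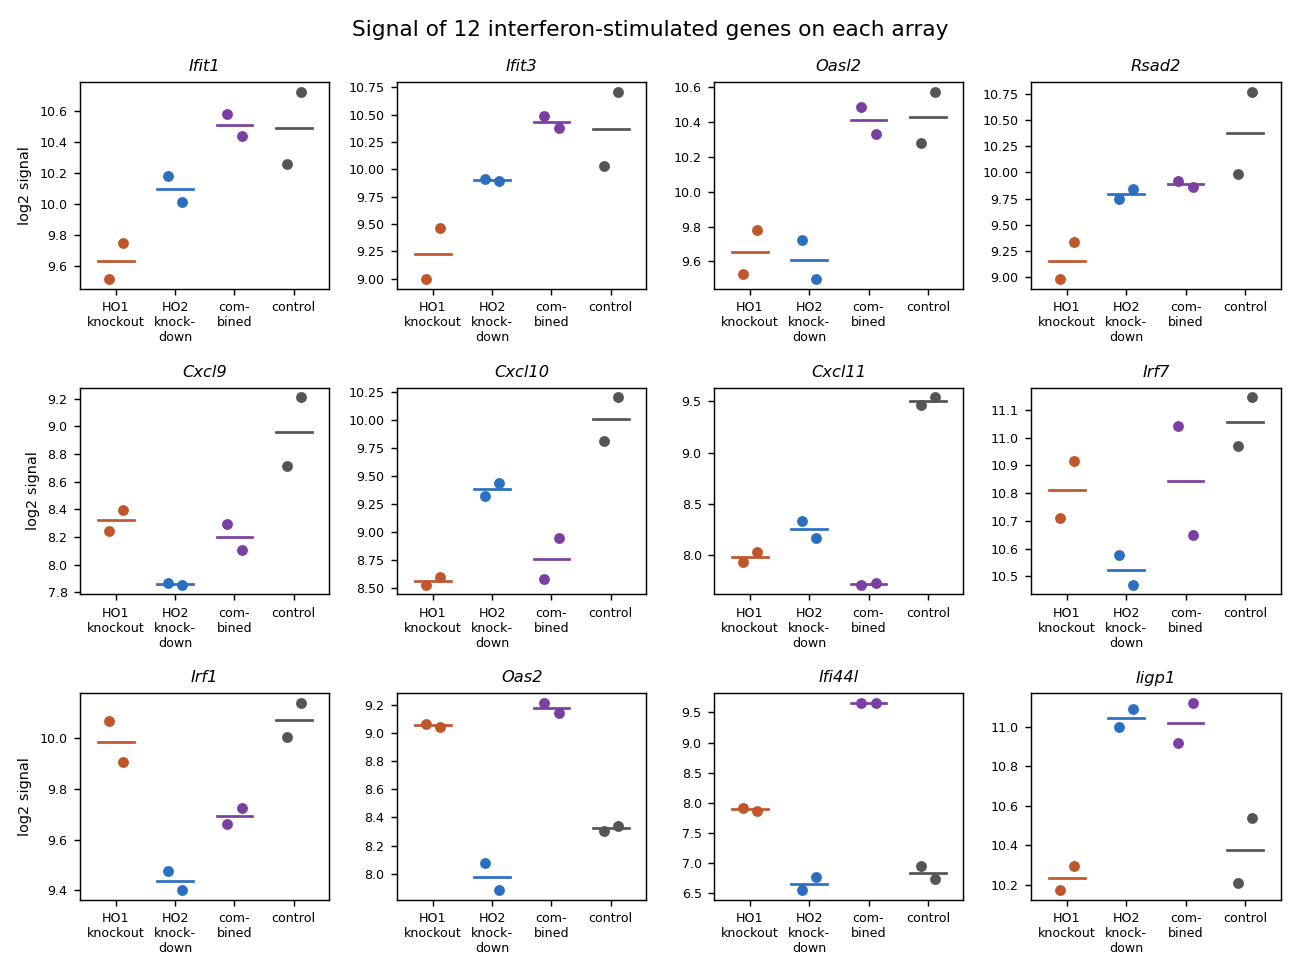
Log2 signal of 12 interferon-stimulated genes, 1 panel a gene, with 1 point an array and a line at the mean of the 2 arrays of a group; groups run from HO1 knockout through HO2 knockdown and combined to control, and each panel has its own vertical scale. Ifit1, Ifit3 and Oasl2 in combined arrays overlap control, Cxcl11 is lowest in combined arrays, and Ifi44l and Oas2 are high in both HO1-/- groups.

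The 3 chemokines, which draw activated T cells and NK cells through the receptor Cxcr3, all fell in each comparison with control. The genes are neighbours on chromosome 5, with gaps of 18.6 kb between Cxcl9 and Cxcl10 and 10.7 kb between Cxcl10 and Cxcl11. Cxcl11 had log2 signals of 7.93 and 8.03 in HO1 knockout, 8.34 and 8.17 in HO2 knockdown, 7.71 and 7.73 in combined and 9.46 and 9.54 in control arrays. The combined arrays were lowest and the control arrays highest, with no overlap between any of the groups. On the linear scale Cxcl11 signal was 35.0% of control in HO1 knockout, 42.2% in HO2 knockdown and 29.2% in combined, with an SE of 0.088 for each log2 difference. Those differences were -1.52 in HO1 knockout (limma adjusted p = 2.84e-09), -1.24 in HO2 knockdown (adjusted p = 2.30e-08) and -1.78 in combined (adjusted p = 1.96e-10).

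Cxcl10 had log2 signals of 8.53 and 8.60 in HO1 knockout, 9.32 and 9.44 in HO2 knockdown, 8.58 and 8.95 in combined and 9.81 and 10.21 in control arrays. All 4 arrays of HO1-/- cells were below the HO2 knockdown arrays, which were below control. In combined arrays Cxcl10 was -0.62 relative to HO2 knockdown (SE 0.12, limma adjusted p = 0.00113), and no combined array reached the HO2 knockdown arrays. Cxcl9 had log2 signals of 8.25 and 8.40 in HO1 knockout, 7.87 and 7.85 in HO2 knockdown, 8.30 and 8.11 in combined and 8.71 and 9.21 in control arrays. Here the HO2 knockdown arrays were lowest, at -1.10 relative to control (SE 0.13, limma adjusted p = 5.73e-06). Interactions were 0.98 for Cxcl9, 0.83 for Cxcl10 and 0.98 for Cxcl11, and all 3 passed. A positive value means here that the fall in combined arrays was smaller than the sum of the single falls.

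The 3 GTPases measured act against intracellular pathogens, and they differed in direction. Gbp3, a guanylate-binding protein, had log2 signals of 8.81 and 8.83 in HO1 knockout, 8.69 and 8.73 in HO2 knockdown, 9.18 and 8.97 in combined and 9.31 and 9.79 in control arrays. Control arrays were highest and did not overlap the others, and both single perturbations lay below combined. Gbp3 fell in all 3 comparisons with control, least in combined arrays (-0.47), and its interaction was 1.09 (SE 0.17, limma adjusted p = 5.53e-04). Irgm1, which regulates other immunity-related GTPases, had log2 signals of 11.05 and 10.97 in HO1 knockout, 11.11 and 11.17 in HO2 knockdown, 11.38 and 11.34 in combined and 11.27 and 11.53 in control arrays. Combined arrays lay within the control range, and the interaction was 0.61 (limma adjusted p = 7.27e-04).

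Iigp1, an immunity-related GTPase of the vacuole membrane, had log2 signals of 10.17 and 10.29 in HO1 knockout, 11.00 and 11.09 in HO2 knockdown, 10.92 and 11.12 in combined and 10.21 and 10.54 in control arrays. Every array with HO2 shRNA was above every array with scrambled shRNA. Iigp1 rose by 0.67 in HO2 knockdown against control (SE 0.092, limma adjusted p = 3.03e-05) and by 0.79 in combined against HO1 knockout (adjusted p = 8.05e-06). Its interaction of 0.12 did not pass (adjusted p = 0.581), which does not show that the 2 effects were equal.

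The RNA sensors recognise viral RNA in the cytoplasm, and their differences were small. Ddx58, which encodes RIG-I, had log2 signals of 11.42 and 11.49 in HO1 knockout, 11.46 and 11.42 in HO2 knockdown, 11.50 and 11.43 in combined and 11.72 and 11.82 in control arrays. All arrays of the other groups were below both control arrays, by 0.32 in HO1 knockout, 0.33 in HO2 knockdown and 0.30 in combined. Combined arrays stood at 0.012 relative to HO1 knockout and 0.027 relative to HO2 knockdown, and neither value passed. Ifih1, which encodes MDA5, had log2 signals of 10.79 and 10.89 in HO1 knockout, 10.88 and 10.93 in HO2 knockdown, 10.96 and 10.87 in combined and 11.02 and 11.23 in control arrays. Control was again clear of the other arrays, and Ifih1 fell by 0.29 in HO1 knockout, 0.22 in HO2 knockdown and 0.21 in combined. Dhx58, which encodes LGP2, a regulator of both, had log2 signals of 9.23 and 9.13 in HO1 knockout, 9.25 and 9.02 in HO2 knockdown, 9.49 and 9.35 in combined and 9.29 and 9.62 in control arrays. The single-perturbation arrays lay below both control arrays, and the combined arrays lay between the control arrays. Dhx58 fell in HO2 knockdown (-0.32), its -0.28 in HO1 knockout did not pass (limma adjusted p = 0.0968), and its interaction of 0.56 passed (limma adjusted p = 0.0205).

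The transcription factors that carry the interferon signal moved with HO2 shRNA in HO1+/+ cells, where 3 of 4 fell. In HO1 knockout 0 of the 4 passed with limma, and 1 was lower at an unadjusted p under 0.05. Irf1 had log2 signals of 10.07 and 9.91 in HO1 knockout, 9.48 and 9.40 in HO2 knockdown, 9.66 and 9.72 in combined and 10.00 and 10.14 in control arrays. The HO2 knockdown arrays were lowest, followed by combined. Irf1 fell by 0.63 in HO2 knockdown against control (SE 0.073, limma adjusted p = 5.35e-06) and by 0.29 in combined against HO1 knockout (adjusted p = 0.00723). A second, dimmer Irf1 probe set gave -0.16 in HO2 knockdown. Irf7, the factor that amplifies type I interferon production, had log2 signals of 10.71 and 10.91 in HO1 knockout, 10.58 and 10.47 in HO2 knockdown, 11.04 and 10.65 in combined and 10.97 and 11.15 in control arrays. The HO2 knockdown arrays were below all others, at -0.53 relative to control, and the combined arrays spanned the HO1 knockout range and overlapped control.

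Stat2 had log2 signals of 11.44 and 11.56 in HO1 knockout, 11.27 and 11.13 in HO2 knockdown, 11.38 and 11.20 in combined and 11.50 and 11.81 in control arrays. Both groups with HO2 shRNA were below both with scrambled shRNA on every array. Stat2 fell by 0.45 in HO2 knockdown and by 0.36 in combined against control, and its value in HO1 knockout was -0.15 (limma adjusted p = 0.323). Irf9, the DNA-binding partner of Stat2, lay between -0.18 and 0.068 in the 5 pairwise comparisons with a lowest limma adjusted p of 0.13.

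Usp18 and Trim25 act on ISG15, a ubiquitin-like protein that interferon induces. Usp18, which removes ISG15 from proteins and restrains interferon signalling, had log2 signals of 12.49 and 12.54 in HO1 knockout, 12.68 and 12.71 in HO2 knockdown, 12.87 and 12.81 in combined and 12.67 and 12.82 in control arrays. The HO1 knockout arrays lay below all other arrays, at -0.23 relative to control (SE 0.049, limma adjusted p = 0.00387). Trim25, a ligase for ISG15 and for RIG-I, had log2 signals of 10.64 and 10.72 in HO1 knockout, 11.06 and 11.04 in HO2 knockdown, 10.98 and 10.91 in combined and 10.66 and 10.90 in control arrays. The 4 arrays with HO2 shRNA were above the 4 with scrambled shRNA, narrowly so for combined replicate 2 and control replicate 2. Trim25 rose with HO2 shRNA by 0.27 in HO1+/+ cells and by 0.27 in HO1-/- cells, as Iigp1 did.

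The ADP-ribosylation and ubiquitin ligase genes Parp9, Dtx3l and Parp14 lie together on chromosome 16, and each fell in both single perturbations. Parp14 had log2 signals of 10.43 and 10.54 in HO1 knockout, 10.27 and 10.17 in HO2 knockdown, 10.55 and 10.54 in combined and 10.72 and 10.96 in control arrays. HO2 knockdown arrays were lowest, at -0.62 relative to control (limma adjusted p = 6.10e-06), and the interaction was 0.68 (adjusted p = 5.13e-04). Parp9, which pairs with the ligase Dtx3l, had log2 signals of 10.03 and 9.99 in HO1 knockout, 9.97 and 9.95 in HO2 knockdown, 10.08 and 10.01 in combined and 10.20 and 10.40 in control arrays. All arrays of the other groups were below both control arrays. The annotated spans of Parp9 and Dtx3l overlap, and Dtx3l fell by 0.24 in HO1 knockout and by 0.27 in HO2 knockdown. Trim21, an antibody receptor in the cytoplasm and a ubiquitin ligase, had log2 signals of 9.77 and 9.65 in HO1 knockout, 9.60 and 9.41 in HO2 knockdown, 9.60 and 9.48 in combined and 9.82 and 10.09 in control arrays. Control arrays were highest without overlap. Trim21 fell in HO2 knockdown (-0.44) and in combined (-0.41).

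The antigen-processing genes Psmb9, Tap1 and Psmb8 lie together on chromosome 17, and 2 of the 3 fell in HO2 knockdown. Psmb9, an immunoproteasome subunit, had log2 signals of 9.27 and 9.30 in HO1 knockout, 8.60 and 8.77 in HO2 knockdown, 9.30 and 9.41 in combined and 9.20 and 9.40 in control arrays. The HO2 knockdown arrays alone were low, by 0.61 against control (SE 0.086, limma adjusted p = 3.98e-05), and the interaction was 0.68 (adjusted p = 0.00189). Psmb8, another subunit, had log2 signals of 9.53 and 9.68 in HO1 knockout, 9.10 and 9.12 in HO2 knockdown, 9.37 and 9.38 in combined and 9.27 and 9.62 in control arrays. The HO2 knockdown arrays were again below all others. Psmb8 fell in HO2 knockdown (-0.34), and its interaction of 0.11 did not pass. Tap1, part of the peptide transporter, had log2 signals of 9.22 and 9.29 in HO1 knockout, 9.40 and 9.25 in HO2 knockdown, 9.52 and 9.31 in combined and 9.46 and 9.65 in control arrays. The single-perturbation arrays were below both control arrays, and combined overlapped control. Tap1 fell in HO1 knockout (-0.30, limma adjusted p = 0.0341), and its -0.23 in HO2 knockdown did not pass (adjusted p = 0.0582).

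Ifi44l had the widest range of all 41 genes and ran against most of them. Its log2 signals were 7.91 and 7.87 in HO1 knockout, 6.55 and 6.77 in HO2 knockdown, 9.65 and 9.66 in combined and 6.96 and 6.73 in control arrays. Both HO1-/- groups stood clear of both HO1+/+ groups. Macrophage and sinusoidal endothelial markers had their higher summed signals in the same groups, and their part in the Ifi44l and Oas2 signals was not tested. The mean signal of Ifi44l lies below the median of gene means, as for Mx1 and Mx2, so its differences may be understated. Ifi44l rose by 1.05 in HO1 knockout (SE 0.10, limma adjusted p = 2.54e-06) and by 2.81 in combined against control (adjusted p = 5.50e-12), and its interaction was 1.95 (SE 0.15, adjusted p = 8.65e-07). Xaf1, which promotes cell death, had log2 signals of 9.27 and 9.18 in HO1 knockout, 9.18 and 8.91 in HO2 knockdown, 9.38 and 9.29 in combined and 9.71 and 9.93 in control arrays. Control arrays were highest without overlap. Xaf1 fell in all 3 comparisons with control, and its interaction was 0.88 (limma adjusted p = 5.24e-04). Ifi35 had log2 signals of 9.68 and 9.57 in HO1 knockout, 9.71 and 9.51 in HO2 knockdown, 9.83 and 9.67 in combined and 9.78 and 10.02 in control arrays. The single-perturbation arrays were below both control arrays, combined overlapped control, and Ifi35 fell in HO2 knockdown (-0.29).

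Direct reversal of the HO2 shRNA effect between genotypes was seen in 7 genes, which fell with it in HO1+/+ cells and rose with it in HO1-/- cells. These were Ifit1, Ifit3, Oasl2, Oas3, Rsad2, Cmpk2 and Irgm1, and of these Oasl2 alone was called in both genotypes whichever array was left out. With HO2 shRNA 3 genes fell in both genotypes (Isg20, Irf1 and Cxcl11) and 2 rose in both (Trim25 and Iigp1). In HO1-/- cells Cxcl11 was not called with centred arrays or with the replicate block. Irf1 was not called there with the mean of its probe sets, nor Trim25 in a fit without the trend. Isg20 and Iigp1 were called in both genotypes in each of these fits. Read the other way, 11 genes were lower in HO1-/- than in HO1+/+ cells with scrambled shRNA and higher with HO2 shRNA, among them Zbp1, Bst2, Gbp3 and Xaf1, and here too Oasl2 alone was called in both whichever array was left out. Oasl1, Eif2ak2, Cxcl10 and Cxcl11 were lower in HO1-/- cells with either shRNA, and Oas2 and Ifi44l were higher with either. Shares of all genes with each of these patterns are not given here. Whether the patterns were more frequent in interferon-stimulated genes than in all genes was therefore not tested.

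**Figure D4:**
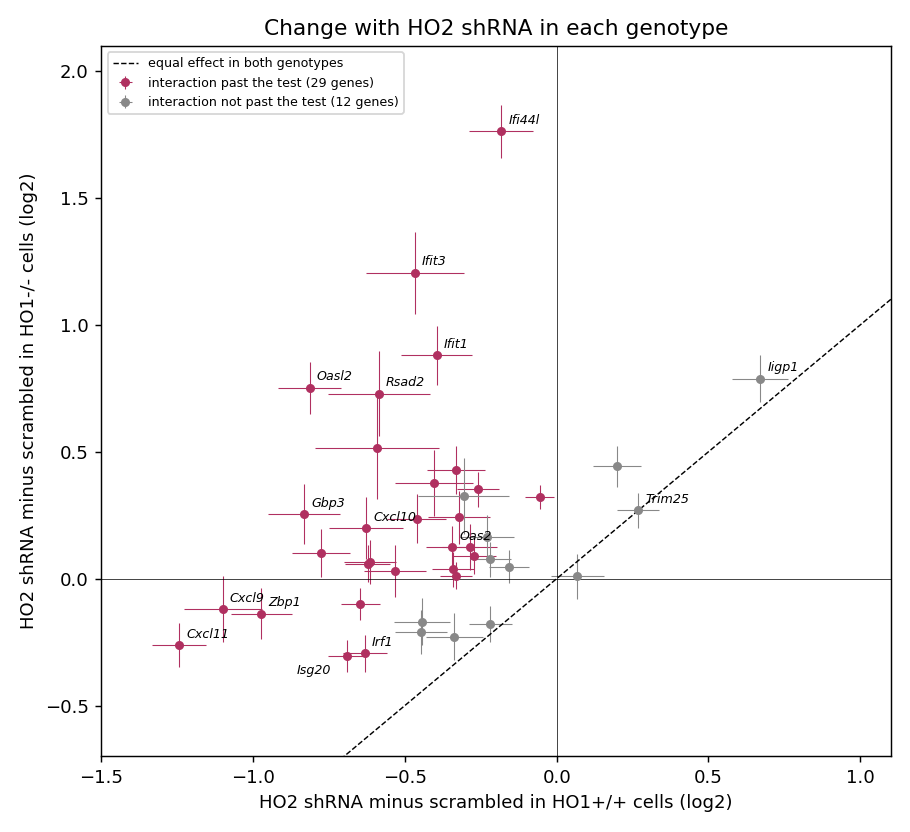
For each of 41 interferon-stimulated genes, the log2 difference with HO2 shRNA in HO1-/- cells (vertical axis) is plotted against that in HO1+/+ cells (horizontal axis), with error bars of 1 SE; the dashed line marks equal effects. The 29 genes past the interaction test all lie above the line, while Iigp1 and Trim25 lie close to it.

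The 10 genes with the ISRE letters in their windows, of which 6 are printed above, included 8 that fell in HO1 knockout (median -0.60), 10 that fell in HO2 knockdown (median -0.46) and 9 past the interaction test (median 0.79). Of the 21 genes whose windows lack these letters, 11 fell in HO1 knockout (median -0.25), 15 fell in HO2 knockdown (median -0.33) and 12 passed the interaction test (median 0.36). Of all genes 7.2% fell in HO1 knockout, 16.7% fell in HO2 knockdown and 4.67% passed the interaction test upward. The counts of both sets describe the windows, and the difference between the sets was not tested.

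Upstream of these genes, 44 other genes of interferon production and signalling were read from the same fit. In HO1 knockout 12 of the 44 rose and 3 fell, where 5.62% of all genes rose and 7.20% fell. In HO2 knockdown 5 rose and 13 fell, where 16.5% of all genes rose and 16.7% fell. The interaction test was passed upward by 4 and downward by 5, against 4.67% and 7.57% of all genes. Of the 8 interferon genes measured, 0 passed with limma in HO1 knockout, HO2 knockdown, combined against control or the interaction. At an unadjusted p under 0.05 the counts were 0 in HO1 knockout, 1 higher and 5 lower in HO2 knockdown, 1 higher in combined against control and 3 positive for the interaction. In combined against HO2 knockdown Ifna5 (0.35) and Ifnl2 (0.47) rose. The summed signal of the 8 interferon genes was 1522 to 1565 in HO2 knockdown, 1883 to 1919 in combined and 1589 to 1945 in control arrays. That of 6 receptors was 18250 to 18611 in control arrays. Background may take a larger share of the interferon gene signals, so neither the rises nor the counts settle whether these genes differed. Ifnb1 was at -0.083 in HO1 knockout and -0.27 in HO2 knockdown, and Ifng was at -0.026 in HO1 knockout.

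Among receptors and kinases, Ifnar2 fell by 0.41 in HO2 knockdown and by 0.46 in combined against control, while its partner Ifnar1 was at -0.029 in HO2 knockdown. Ifngr2 fell by 0.22 in HO2 knockdown, and Ifngr1 rose by 0.16. Il10rb, a chain of the lambda interferon and interleukin-10 receptors, rose by 0.48 in HO1 knockout and by 0.35 in HO2 knockdown. Jak1 fell by 0.19 and Jak2 by 0.18 in HO2 knockdown, and Tyk2 was at -0.016. Tlr7, an RNA sensor of immune cells, rose by 3.79 in HO1 knockout, and Sting1, the adaptor of cytoplasmic DNA sensing, by 0.85, in the arrays where macrophage markers were high. Ikbke, a kinase that activates interferon regulatory factors, fell by 0.58 in HO2 knockdown, as did the adaptor Myd88 (-0.48) and the RNA-editing enzyme Adar (-0.66).

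Marker genes of other cells also differed between the groups, and the shares of all genes called in each comparison are those given above. Macrophage markers were high in both HO1-/- groups, as given above, while the summed signal of the 41 interferon-stimulated genes was 44057 to 46141 in HO1 knockout, 45684 to 47130 in HO2 knockdown, 50142 to 53429 in combined and 52650 to 62543 in control arrays. Of 10 sinusoidal endothelial markers 4 rose in HO1 knockout (median 0.23) and 8 in combined against control (median 0.55), and 4 rose and 1 fell in HO2 knockdown. In combined against HO2 knockdown 7 of them rose. Their summed signal was 4218 to 4234 in HO1 knockout, 1923 to 1983 in HO2 knockdown, 4361 to 4671 in combined and 1545 to 1603 in control arrays. Of 11 stellate cell and fibroblast markers 7 fell in HO1 knockout (median -0.35), and 5 passed the interaction test upward and 2 downward. Their summed signal was 8360 to 8587 in HO1 knockout, 11251 to 11616 in HO2 knockdown, 10293 to 10664 in combined and 11158 to 11197 in control arrays. Of 12 hepatocyte markers 7 rose and 1 fell in HO1 knockout. In HO2 knockdown 10 rose and 1 fell (median 0.88), and 6 passed the interaction test downward. Their summed signal was 69352 to 69999 in HO1 knockout, 105291 to 110058 in HO2 knockdown, 109602 to 112049 in combined and 58737 to 60089 in control arrays. Of 11 NK and T cell markers 0 passed in HO1 knockout with limma, 0 passed at an unadjusted p under 0.05, and 1 fell in HO2 knockdown. Their summed signal was low, at 1006 to 1155 in HO1 knockout, 988 to 1023 in HO2 knockdown, 1107 to 1120 in combined and 992 to 1187 in control arrays. Background takes a larger share of low signals, so these counts do not settle whether such cells differed. The part of any of the marker shifts in the interferon-stimulated genes was not tested.

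Single arrays decided part of the counts. Without control replicate 2, 17 genes fell in HO1 knockout, where 5.36% of all genes fell, and 20 in HO2 knockdown, where 23.4% fell. In the same fit 12 fell in combined against control, where 15.3% of all genes fell, and 7 rose, where 10.8% rose. Without HO2 knockdown replicate 2, 20 genes fell in HO2 knockdown, where 11.0% of all genes fell. Without combined replicate 1, 19 passed the interaction test in the positive direction, where 1.98% of all genes did. When each of the 8 arrays was left out in turn, 17 of the 27 calls in HO1 knockout were made every time, and Ifit2, Mx2, Zbp1, Eif2ak2, Usp18, Ifih1, Parp9, Parp14, Dtx3l and Tap1 were not. In HO2 knockdown 19 of 34 calls were made every time, and the other 15 were Trim25, Ifit1, Ifit3, Oas2, Oas3, Mx2, Rsad2, Eif2ak2, Cmpk2, Ifih1, Dhx58, Irgm1, Dtx3l, Psmb8 and Ifi35. In combined against control 15 of 21 were, the exceptions being Rsad2, Ifih1, Stat2, Gbp3, Parp9 and Parp14. Of the 29 interaction calls 26 were made without control replicate 2, a fit that called 12.5% of all genes positive, against 4.67% with all arrays. Whichever array was left out, 19 were made, and the 10 others were Oas2, Mx2, Isg20, Cmpk2, Dhx58, Irf1, Irf7, Parp9, Dtx3l and Ifi35. Arrays of the 2 groups did not overlap, with the perturbed group lower, for 30 of 41 genes in HO1 knockout and 34 in HO2 knockdown, against 30.8% and 39.7% of all genes.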

How the data were processed

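Total RNA (300 ng an array, per the labels' protocols) was measured on 8 whole-transcript arrays, 2 a group. Per the submitters' processing notes the authors ran RMA (package affy, R 2.15.0), and the table they deposited holds log2 signals of probe sets. A genome build is not given in the sources used here. Of 34760 probe sets, 21640 carried 1 gene symbol and were used, 1321 carried several and 11799 none. For 954 genes with several, the brightest was kept. Names came from the RefSeq table (GRCm38.p6), which matched 19855 of 19937 genes.

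Log2 values were fitted with limma (3.58.1, R 4.3.3) as 4 group means over 8 arrays, with 4 residual and 11.2 prior degrees of freedom and a mean-variance trend. Two-sided p-values were adjusted over 19937 genes (Benjamini-Hochberg) and called at an adjusted p under 0.05. The fit was tested on simulated data. Values on every array are given for the 3 members of each role with the widest range of group means. Further pathway genes named are receptors, kinases and interferons, plus those with the smallest p. Precision is limited by 2 arrays a group, and SEs of the 41 genes ran from 0.049 to 0.20 for single comparisons and from 0.069 to 0.29 for the interaction. The members and lists were chosen with earlier results of these data known. Alternatives were array scaling, the trend, robust moderation, dim genes, probe-set averaging, a stricter threshold, the replicate block and leaving out each array. Promoter windows were RefSeq's, searched on both strands, and motif shares are per gene with a match in any of its windows.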

Additional observations from a re-analysis of the deposited data

Results flagged for a closer look

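For 29 of 41 interferon-stimulated genes the effect of HO2 shRNA in HO1-/- cells differed from that in HO1+/+ cells by limma's interaction test. Every one of these 29 differences was positive, where 4.67% of all genes passed in the positive direction and 7.57% in the negative. Of the 29 calls 19 were made without the trend and 25 with each array centred on its median. Irf1 passed in neither of these fits, nor with the mean of all probe sets per gene. Values are log2 differences of differences. Ifi44l had the largest of them at 1.95, followed by Ifit3 at 1.67, Oasl2 at 1.57, Rsad2 at 1.32 and Ifit1 at 1.28. Mx2 stood at 1.11, Gbp3 at 1.09, and of the chemokines Cxcl11 at 0.98, Cxcl9 at 0.98 and Cxcl10 at 0.83. Xaf1 had 0.88, Zbp1 0.84, Cmpk2 0.78, Oas3 0.76 and Oas1a 0.70. Parp14 and Psmb9 had 0.68 each, and Irgm1 had 0.61. Irf7 had 0.57, Dhx58 0.56, Bst2 0.55 and Oas2 0.47. The smallest were Ifi35 at 0.41, Isg20 at 0.39, Parp9 at 0.38, Usp18 at 0.38, Dtx3l at 0.36, Ddx58 at 0.34 and Irf1 at 0.34.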

How the results depend on the processing

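No alternative turned the direction of a called value. Of 3918 recomputed values of single genes, 3542 kept their side of the threshold, 304 lost it and 72 gained it. Leaving out each array gave 17 to 32 genes lower and 2 to 3 higher in HO1 knockout, 20 to 35 lower and 1 to 3 higher in HO2 knockdown, and 12 to 23 lower and 3 to 7 higher in combined against control. Over all genes the same fits called 4.07% to 8.82% lower and 4.34% to 5.91% higher in HO1 knockout, 10.7% to 23.4% lower and 12.1% to 17.4% higher in HO2 knockdown, and 12.2% to 19.3% lower and 8.84% to 13.4% higher in combined against control. Combined against HO1 knockout had 9 to 16 higher and 1 to 6 lower, combined against HO2 knockdown 8 to 22 higher and 2 to 4 lower, and the interaction 19 to 35 positive and 0 negative. Over all genes these were 6.74% to 11.9% higher and 8.43% to 14.5% lower, 6.51% to 18.01% higher and 12.7% to 23.4% lower, and 1.98% to 12.5% positive and 4.25% to 11.3% negative. In combined against HO2 knockdown the higher count was 12 and 9 without HO2 knockdown replicate 1 and 2, and 8 and 13 without combined replicate 1 and 2. In combined against HO1 knockout the lower count was 6 without either control array, and 1 without HO1 knockout replicate 1 or combined replicate 1. Fitting without the trend gave 19 interaction calls, where 2.94% of all genes passed upward. In combined against HO2 knockdown it gave 9 higher, where 13.0% of all genes rose. That count was 10 with centred arrays, where 8.64% of all genes rose, and 8 at an adjusted p under 0.01. At that threshold 21 genes fell in HO2 knockdown, and shares of all genes at it are not given here. Leaving out dim genes, which drops Ifi44l, left 1 higher in HO1 knockout. The cause of the other shifts was not tested. With the replicate block 241 of 246 values kept their side of the threshold and 28 of 29 interaction calls were made, without Irf1. Deviations from the group mean on same-numbered arrays of different groups correlated at -0.26 to 0.12 over all genes. With 2 arrays a group this cannot show whether the numbers pair the samples. Quantile normalizing once more gave 28 of the 29 interaction calls, without Mx2.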
